A study of Mus musculus with 16 samples.

Results

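The receptors described here are 10 mouse genes: the cysteinyl leukotriene receptors Cysltr1 and Cysltr2, the nucleotide receptors P2ry1, P2ry2, P2ry4 and P2ry6, and the ATP-gated channel subunits P2rx2, P2rx3, P2rx4 and P2rx7. They were taken by symbol from the 36536 gene identifiers of the count tables, and all 10 were found. The set was picked because Cysltr2 and P2ry6 were among the larger falls with DAPT in P0 GFP+ cells, a choice made without a numerical threshold. The values of that comparison are therefore given as a description and without a p-value. The cells came from cochleas of Lfng-EGFP mice, which carry a bacterial artificial chromosome with enhanced green fluorescent protein (GFP) under Lfng control and were kept on a mixed B6;FVB background. Explants taken at postnatal day 0 (P0) or 5 (P5) were then cultured over 24 hours with DAPT at 10 µM or with its vehicle, DMSO, at 0.04%. DAPT inhibits gamma-secretase, the protease that releases the active part of the Notch receptor. After dissociation and sorting, RNA was sequenced from GFP+ cells, the supporting cells, and from GFP- cells, which are a mixture of the other cell types of the explant. The 8 groups of 2 libraries thus differ in age (P0 or P5), treatment (DMSO or DAPT) and fraction (GFP+ or GFP-), and every group carries the transgene and the period in culture. Only the brightest GFP+ cells were kept. Per the study, border, inner phalangeal, outer pillar and Deiters' cells carry the transgene and inner pillar cells do not, so that the GFP+ fraction does not hold every supporting cell type. Nothing in the labels says that the replicates of a group came from separate animals or cultures, and p-values then measure only the spread between these samples. With bulk libraries, fewer cells of a type and less RNA per cell cannot be told apart.

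P2X subunits form cation channels that ATP opens, whereas P2Y receptors are coupled to G proteins and answer to ATP, ADP, UTP or UDP. Both families are known in the developing cochlea for the period before hearing begins, when supporting cells release ATP through connexin hemichannels and answer it with calcium release from stores and with chloride efflux through Ano1. CysLT receptors are G protein-coupled receptors for leukotrienes made from arachidonic acid by Alox5, and are best known from leukocytes and smooth muscle.

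Cysltr2 and P2ry6 fell together with DAPT at P0, and the bases before their annotated 5′ ends are printed for that reason. Both genes lie on the minus strand of the NCBIM37 build, Cysltr2 at chromosome 14, 73428935 to 73448921, and P2ry6 at chromosome 7, 108086152 to 108112905. Each sequence holds the 250 bases before the 5′ end of the gene in GENCODE release M1, read 5′ to 3′ along the gene's own strand. They come from chr14:73448922-73449171 and chr7:108112906-108113155, both on the minus strand, and capitals mark TGGGAA, the core of the motif bound by the Notch pathway factor Rbpj, or its reverse complement TTCCCA.
Cysltr2: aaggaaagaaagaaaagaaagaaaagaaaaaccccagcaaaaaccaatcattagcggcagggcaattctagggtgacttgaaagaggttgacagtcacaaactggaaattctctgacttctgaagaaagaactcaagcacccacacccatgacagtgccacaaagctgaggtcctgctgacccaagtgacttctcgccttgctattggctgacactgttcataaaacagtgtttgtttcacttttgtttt
P2ry6: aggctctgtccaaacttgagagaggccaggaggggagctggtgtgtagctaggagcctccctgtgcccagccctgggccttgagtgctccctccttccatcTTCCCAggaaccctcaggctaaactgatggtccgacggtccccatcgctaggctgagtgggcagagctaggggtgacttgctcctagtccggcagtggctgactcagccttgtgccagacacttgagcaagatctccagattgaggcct
The P2ry6 stretch held 1 match on the reverse strand, starting 149 bases before the gene, and the Cysltr2 stretch held none. Among the other receptors only P2ry4 had a match in the same window, at 153 bases. Of 21404 windows of this length before protein-coding genes, 21% held these letters on either strand, so that a match is common, and its absence says only that the letters are not in this window.

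Levels are given as CPM, counts per 1000000 counts of the library after correction by the trimmed mean of M values (TMM) over the 16 libraries, and 3 counts correspond to between 0.064 and 0.23 CPM. RPKM divides this by the exonic length of the gene, and is used where genes are compared with each other. Counts assigned to genes ranged from 13755356 to 23637236 in the GFP+ libraries and from 34869184 to 45465324 in the GFP- libraries. Reads that the counting assigned to no annotated feature, which need not lie outside genes, made up 50.05% to 62.02% of the reads in GFP+ libraries. In GFP- libraries they made up 6.64% to 13.73%, a difference that moves with the fraction in every comparison between GFP+ and GFP- cells. The library labelled P0 DMSO GFP- replicate 2 stood apart from its group: over the 15747 genes with at least 1 CPM in a GFP- library, Pearson's r of log2(CPM + 0.5) was 0.9332 with its own replicate and 0.9817 to 0.9875 with the P5 GFP- libraries. Comparisons that use this library are given with and without it. The library numbers of the deposit fell into 3 separate runs, with all GFP- libraries in the lowest, the P0 DMSO GFP+ libraries alone in the highest, and the remaining GFP+ libraries between them. The P0 DMSO GFP+ libraries also had more genes with any count, 30639 and 31345, against 25651 to 27156 in the remaining GFP+ libraries. Reads without a unique alignment made up 8.56% and 7.63% of their reads, against 3.95% to 4.45%. The part of this difference in the values of low receptors was not tested. If the runs were batches, they cannot be told apart from the groups in the P0 GFP+ comparison of DAPT with DMSO, in the comparison of ages in DMSO GFP+ cells, or between fractions. The 11 supporting cell markers checked summed to between 1959 and 4852 CPM in GFP+ libraries and to between 603 and 809 CPM in GFP- libraries. All 11 were above 0 CPM in each GFP+ library except 1 library of P5 DAPT.

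At P0 in DMSO, supporting cells held far more Cysltr2 than any other receptor of the set. Compared per exonic length as RPKM, the mean level of Cysltr2 was 109 ± 9.17 (SD, n = 2 here and below). P2ry6, the UDP receptor, followed at 13.4 ± 2.29 RPKM, and P2rx2, the ATP-gated subunit that carries much of the purinergic current of the cochlear epithelium, at 12.9 ± 1.72 RPKM. The replicates of P2ry6 and P2rx2 overlapped, so that these neighbours in the order were not separated. P2ry2, a receptor for ATP and UTP, had a level of 8.46 ± 1.63 RPKM, P2rx4 one of 3.34 ± 0.0389 RPKM and the ADP receptor P2ry1 one of 2.09 ± 0.721 RPKM, each apart from the next. P2rx3, Cysltr1, P2rx7 and P2ry4 were below 1 RPKM, and the last 3 of these overlapped. The P0 libraries are among those that picked the set, so their order is a description. By P5 the order had changed. P2rx2 led with 60.3 ± 5.58 RPKM, P2ry2 (18.5 ± 10.6 RPKM) and P2ry1 (11.6 ± 2.8 RPKM) came next with overlapping replicates, and Cysltr2 stood behind P2rx4 at 5.36 ± 1.1 RPKM.

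**Figure D1:**
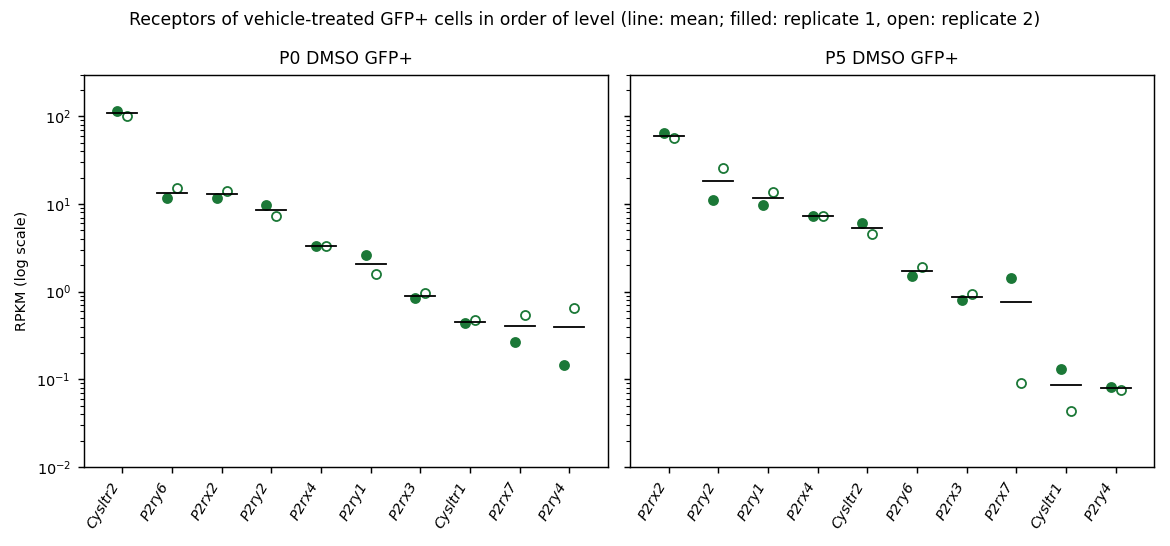
RPKM on a log axis for the 10 receptors in P0 (left) and P5 (right) GFP+ cells kept in DMSO, ordered by their mean, with replicate 1 as a filled point, replicate 2 as an open point and the mean as a line. Cysltr2 leads at P0 with a mean of 109 RPKM and stands below P2rx2, P2ry2, P2ry1 and P2rx4 at P5 with 5.36 RPKM, where P2rx2 leads with 60.3 RPKM.

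**Figure D2:**
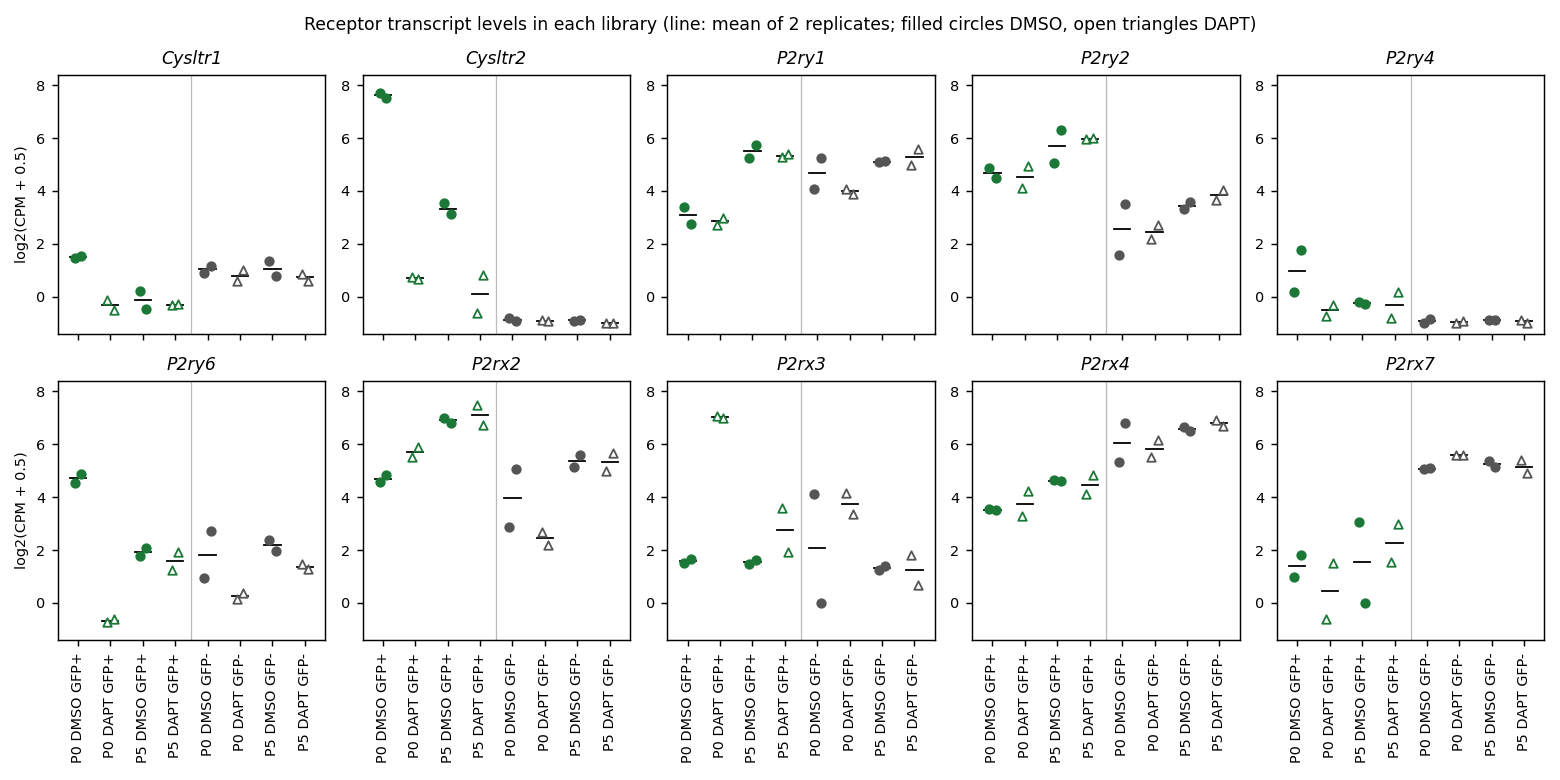
log2(CPM + 0.5) of each receptor in the 16 libraries, with GFP+ libraries in green left of the vertical line, GFP- libraries in gray right of it, DMSO as filled circles, DAPT as open triangles and the group mean as a line. Cysltr2 is high in P0 DMSO GFP+ cells and near the bottom of the axis in all GFP- libraries, P2rx3 is high in P0 DAPT GFP+ cells, and P2rx4 and P2rx7 are higher in GFP- than in GFP+ libraries at both ages.

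With DAPT, P0 supporting cells lost nearly all of their Cysltr2 and P2ry6 transcripts and gained P2rx3. Cysltr2 was at 207 and 184 CPM in the DMSO libraries and at 1.17 and 1.09 CPM in the DAPT libraries. P2ry6 was at 22.9 and 29.2 CPM in DMSO and at 0.107 and 0.155 CPM in DAPT, where it had 2 and 3 counts. P2rx3, a subunit best known from sensory neurons that can join P2rx2 in mixed channels, went the other way, from 2.34 and 2.7 CPM to 132 and 128 CPM. In each of these 3 genes the libraries of the groups were far apart. The log2 fold changes fitted with edgeR were -7.46 ± 0.20 (SE here and below) for Cysltr2, -7.60 ± 0.41 for P2ry6 and 5.65 ± 0.18 for P2rx3. The ratio of the summed P2ry6 counts was 197, with an exact 95% interval of 84.1 to 608 that covers counting error only. A gene was called where its adjusted p was under 0.01 and its fold change over 2, named the limits here, and 3 of the 10 receptors were called beside 8.37% of the 20711 genes tested (4.2% higher and 4.17% lower with DAPT). The members were picked from this comparison, so nothing is read from that count. By size of fold change P2ry6 ranked 34 and Cysltr2 ranked 41 among the 863 genes called lower, and P2rx3 ranked 14 among the 870 called higher. The study listed Cysltr2 among its most down-regulated and P2rx3 among its most up-regulated genes of this comparison. It describes P0 GFP+ cells in DAPT as starting to trans-differentiate into hair cells.

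P2rx2 was at 23.2 and 28.0 CPM in DMSO and at 45.5 and 58.7 CPM in DAPT, a log2 fold change of 0.99 ± 0.19 that stood just under the 2-fold limit. Both replicates with DAPT were above both with DMSO. Cysltr1, the other cysteinyl leukotriene receptor, was low throughout, at 2.24 and 2.44 CPM in DMSO and at 0.427 and 0.207 CPM in DAPT (log2 fold change -2.90 ± 0.74). P2ry4, another receptor for UTP, was at 0.641 and 2.9 CPM in DMSO and at 0.107 and 0.31 CPM in DAPT (-3.07 ± 1.01). Neither was called, and both had fewer than 60 counts in every library of the comparison. The replicates of P2ry1, P2ry2, P2rx4 and P2rx7 overlapped between treatments, with log2 fold changes between -0.84 and 0.28. The set thus held members that fell, rose and overlapped, and its median log2 fold change was -0.57.

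Hair cell markers moved with this comparison: 11 markers summed to 449 and 313 CPM in DMSO and to 2678 and 2407 CPM in DAPT, while supporting cell markers summed to 4852 and 4335 CPM in DMSO and to 3153 and 3154 CPM in DAPT. Neuron markers summed to 106 and 61.6 CPM in DMSO and to 157 and 184 CPM in DAPT. Of the 8 neuron markers, Snap25, Nefm, Elavl4 and Stmn2 were higher with DAPT without overlap, Snap25 going from 8.79 and 5.14 CPM to 65.2 and 71.7 CPM, whereas Syt1 was lower without overlap and Nefl, Tubb3 and Prph overlapped. Prph, a filament of peripheral neurons, was the lowest of them, at 0.0458 and 0 CPM in DMSO and at 0.32 and 0 CPM in DAPT. The 12 macrophage markers summed to 26.2 and 30.2 CPM in DMSO and to 15.8 and 16.8 CPM in DAPT, lower without overlap beside the fall of P2ry6. Among them the leukocyte phosphatase Ptprc was at 5.49 and 5.6 CPM in DMSO and at 0.427 and 0.879 CPM in DAPT, and the microglial and macrophage receptor Cx3cr1 was at 0 in both DAPT libraries. The part of a change in cell types in the fall of Cysltr2 and P2ry6 and in the rise of P2rx3 was not tested. P2rx3 lies on the minus strand of chromosome 2 (84838740 to 84877619, NCBIM37), and 51 of its exonic bases are shared with Ssrp1 on the other strand. The library kit named in the methods does not keep the strand, so reads from the shared bases cannot be assigned. Ssrp1 was at 63.4 and 59.0 CPM in DMSO and at 63.1 and 68.5 CPM in DAPT.

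**Figure D3:**
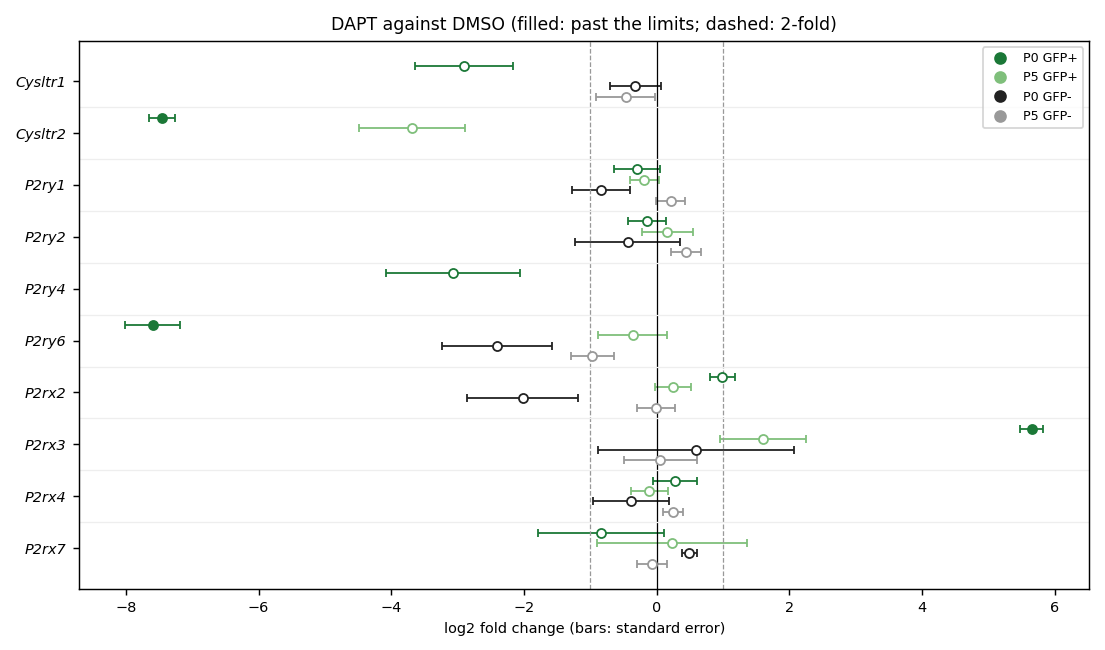
log2 fold changes of DAPT against DMSO for each receptor in P0 (dark green) and P5 (light green) GFP+ cells and in P0 (black) and P5 (gray) GFP- cells, with standard errors as bars, filled points past the limits and dashed lines at a fold change of 2. Cysltr2, P2ry6 and P2rx3 in P0 GFP+ cells are the filled points, and receptors that did not pass the filter on low counts have no point.

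The question asked at P5 was how far older supporting cells still respond to DAPT. Cysltr2 was the receptor with the widest gap: it was at 11.1 and 8.26 CPM in DMSO and at 0.156 and 1.26 CPM in DAPT, so that both libraries with DAPT were below both with DMSO. The 0.156 CPM library had 2 counts. Its log2 fold change was -3.69 ± 0.80 and it did not pass the limits (adjusted p = 0.67, edgeR quasi-likelihood test with Benjamini-Hochberg adjustment over 18754 genes). It was called without the filter on low counts (adjusted p = 7.8e-08) and by the DESeq2 Wald test (adjusted p = 0.00083), and its log2 fold change was -5.88 without DAPT replicate 2 and -2.95 without DAPT replicate 1, the ends of its range over the alternatives. P2rx3 was at 2.26 and 2.59 CPM in DMSO and at 11.5 and 3.3 CPM in DAPT. Its libraries did not overlap either, and its log2 fold change of 1.60 ± 0.65 missed the limits (edgeR adjusted p = 0.97). Without DAPT replicate 1, the library at 11.5 CPM, it was 0.43. P2ry6 was at 2.93 and 3.75 CPM in DMSO and at 1.87 and 3.3 CPM in DAPT, with overlapping libraries (log2 fold change -0.36 ± 0.52, edgeR adjusted p = 1). The other tested receptors had log2 fold changes between -0.19 and 0.25, and Cysltr1 and P2ry4 did not pass the filter.

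No receptor of the 8 tested was called at P5, beside 0% of all genes: edgeR called 0 of 18754 although 953 genes had an unadjusted p under 0.05, the DESeq2 Wald test called 58 and the fit without a filter 108. The study, which used DESeq, listed Cysltr2 among the genes significantly lower with DAPT in P5 GFP+ cells. On simulated counts with the common spread of these libraries edgeR recovered 36.5% of 4-fold changes, against 92% with that of the P0 libraries, so that a change of this size would often have been missed at P5. The changed genes were drawn from those above the median level and all genes shared a common spread. The shares therefore do not cover receptors with low counts.

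The difference between the responses at P5 and P0 shares the P0 GFP+ libraries that picked the set and is given without a p-value. On the log2 scale it was 7.24 ± 0.63 for P2ry6, 3.85 ± 0.68 for Cysltr2 and -4.08 ± 0.65 for P2rx3. P2ry6 and P2rx3 were past the limits, beside 1.1% of 22199 genes (0.392% with a higher and 0.712% with a lower response at P5), and nothing is read from that count. The value of Cysltr2 rested on the P5 DAPT libraries, at 1.55 without replicate 2 and 4.49 without replicate 1, whereas those of P2ry6 lay between 6.73 and 7.54 when any library was left out. For P2ry6 the contrast between ages lay in levels as well as in responses. Its DMSO level at P5, 3.34 ± 0.575 CPM, was below that at P0, 26.0 ± 4.44 CPM, while its DAPT level at P5, 2.59 ± 1.01 CPM, was above that at P0, 0.131 ± 0.0342 CPM. For Cysltr2 the DAPT levels of the ages overlapped, at 1.17 and 1.09 CPM at P0 and 0.156 and 1.26 CPM at P5.

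In the GFP- fraction, where Cysltr2 and P2ry4 did not pass the filter, none of the other 8 receptors passed the limits with DAPT, at P0 or at P5, beside 0% of the 17357 and 17286 genes tested by edgeR. At P0, 614 genes had an unadjusted p under 0.05 and the DESeq2 Wald test called 27, and at P5 the numbers were 342 and 8. P2ry6 at P0 was at 1.41 and 6.06 CPM in DMSO and at 0.615 and 0.808 CPM in DAPT (log2 fold change -2.41 ± 0.83, edgeR adjusted p = 1). The value of 6.06 CPM belongs to the library that stood apart, and without it the log2 fold change was -1.0. P2rx2 was at 6.75 and 33.2 CPM in DMSO, the higher again in that library, and at 6.0 and 4.04 CPM in DAPT (-2.02 ± 0.84, adjusted p = 1). Without that library its log2 fold change was -0.44. P2rx3 was at 17.1 and 0.493 CPM in DMSO and at 17.3 and 9.77 CPM in DAPT, and its log2 fold change of 0.59 ± 1.48 became -0.36 without that library. P2ry1 was at 16.3 and 37.5 CPM in DMSO and at 16.2 and 14.4 CPM in DAPT (-0.84 ± 0.44), and its log2 fold change was -0.1 without that library. P2rx7 was at 32.6 and 33.4 CPM in DMSO and at 47.2 and 47.3 CPM in DAPT, without overlap but not called (0.49 ± 0.11, edgeR adjusted p = 1), and stayed at 0.52 without that library. Cysltr1 (-0.32 ± 0.39), P2ry2 (-0.44 ± 0.79) and P2rx4 (-0.39 ± 0.57) were not called either, and without that library they were at -0.14, 1.02 and 0.55. When the other DMSO replicate was left out in its place, P2ry1, P2ry6, P2rx2 and P2rx3 all passed the limits, so that these calls depended on which P0 DMSO GFP- library was used. At P5, P2ry6 was at 4.77 and 3.44 CPM in DMSO and at 2.24 and 1.94 CPM in DAPT, without overlap (-0.97 ± 0.32, edgeR adjusted p = 1). The remaining receptors at P5 had log2 fold changes between -0.47 and 0.44.

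In the GFP- libraries the levels of P2ry6 and P2rx3 moved with markers of particular cell types. The 12 macrophage markers summed to 92.6 and 244 CPM in P0 DMSO, 57.9 and 47.0 CPM in P0 DAPT, 261 and 175 CPM in P5 DMSO and 159 and 124 CPM in P5 DAPT. P2ry6, which macrophages are known to carry, was highest in the 2 libraries with the highest sums and lowest in the P0 DAPT libraries, where the sums were lowest. The 8 neuron markers summed to 434 and 104 CPM in P0 DMSO and to 417 and 289 CPM in P0 DAPT, against 134 to 156 CPM at P5. P2rx3 was at 9.77 to 17.3 CPM in the 3 libraries with the most neuron markers and at 0.493 to 3.0 CPM in the other 5. All 12 macrophage and all 8 neuron markers were above 0 CPM in each GFP- library. P2rx7 did not move with the macrophage sums: it was highest in the P0 DAPT libraries, at 47.2 and 47.3 CPM, where those sums were lowest. The 7 glia markers had their highest sums in the same libraries, at 1307 and 1295 CPM, against 380 to 776 CPM in the other GFP- libraries. The part of macrophages, neurons and glia in these values was not tested.

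**Figure D4:**
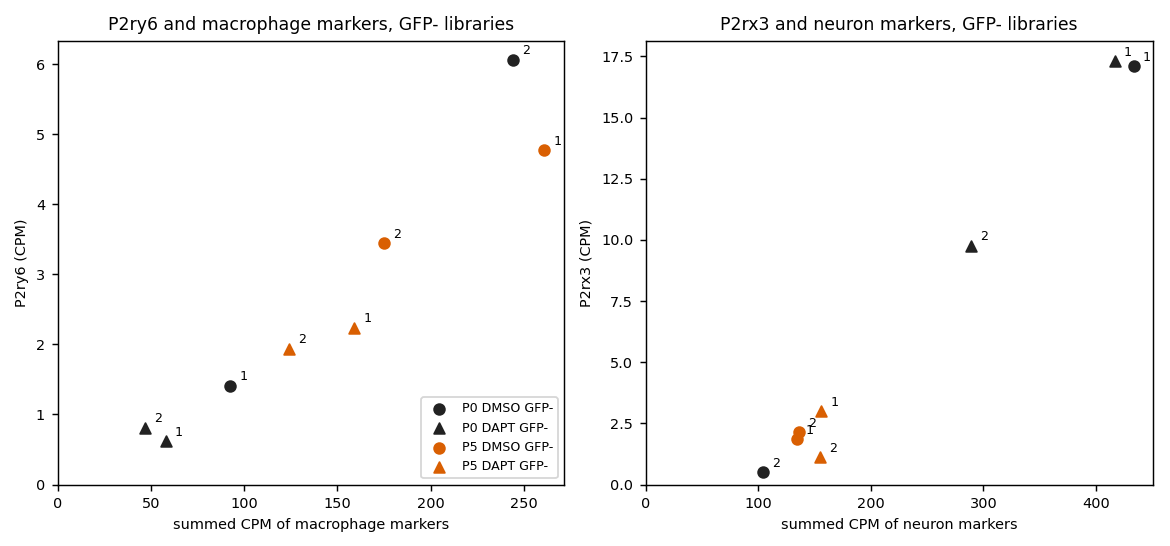
P2ry6 in CPM against the summed CPM of 12 macrophage markers (left) and P2rx3 in CPM against the summed CPM of 8 neuron markers (right) in the 8 GFP- libraries, with replicate numbers beside the points, circles for DMSO, triangles for DAPT, black for P0 and orange for P5. The P0 DMSO replicates lie far from each other in both panels, with replicate 2 at 6.06 CPM of P2ry6 and 0.493 CPM of P2rx3.

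The comparison of GFP+ with GFP- cells asked which receptors supporting cells hold more of than other cochlear cells. The P5 libraries were not in the comparison that picked the set, which was nonetheless chosen with earlier results of these data known. At P5 in DMSO, 4 of 9 tested receptors passed the limits, beside 33.9% of 19008 genes (18.4% were higher in GFP+ cells and 15.5% lower). Cysltr2 was at 11.1 and 8.26 CPM in GFP+ cells and at 0.0235 and 0.0499 CPM, or 1 and 2 counts, in GFP- cells. The ratio of the summed counts was 264, with an exact 95% counting interval of 89.7 to 1290 (log2 fold change 8.03 ± 0.63). Cysltr2 passed the filter on low counts only through the GFP+ libraries, where it was high, so its call is a description and no p-value is given. P2ry2 was at 33.1 and 78.1 CPM in GFP+ cells and at 9.39 and 11.4 CPM in GFP- cells (2.56 ± 0.42, edgeR adjusted p = 0.0042). P2rx2 was also higher in GFP+ cells, at 127 and 112 CPM against 35.1 and 47.6 CPM (1.67 ± 0.21, adjusted p = 0.0021). P2rx4, an ATP-gated subunit common in immune and epithelial cells, was lower, at 24.5 and 24.0 CPM against 99.4 and 90.7 CPM (-1.84 ± 0.18, adjusted p = 0.0011). The groups did not overlap for any of these 4 genes.

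P2rx7, an ATP-gated channel prominent in macrophages and glia, was at 7.95 and 0.496 CPM in P5 DMSO GFP+ cells and at 40.6 and 34.4 CPM in GFP- cells. Both GFP+ libraries were lower, but they lay far from each other and the gene was not called (log2 fold change -3.02 ± 0.98, edgeR adjusted p = 0.039). Mesenchyme markers in these GFP+ libraries summed to 1523 and 391 CPM and endothelial markers to 90.7 and 23.8 CPM, higher in the replicate with more P2rx7. Macrophage markers summed to 56.4 and 20.8 CPM in the same order, and the 7 glia markers to 383 and 300 CPM. The P5 DAPT GFP+ libraries had 2.42 and 7.5 CPM of P2rx7 beside mesenchyme sums of 622 and 1608 CPM and macrophage sums of 36.8 and 57.5 CPM, again with the higher values in 1 library, while the glia sums were 325 and 279 CPM. The part of these cells in the P2rx7 level was not tested. Cysltr1 (-1.73 ± 0.76), P2ry1 (0.55 ± 0.22), P2ry6 (-0.16 ± 0.45) and P2rx3 (0.42 ± 0.48) were not called, and P2ry4 did not pass the filter. The P2ry6 libraries of the fractions overlapped at P5, unlike at P0.

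In P5 DAPT the same comparison called 4 of 8 tested receptors, beside 36.2% of 19338 genes (19.8% higher and 16.4% lower). P2ry2 (2.29 ± 0.22, edgeR adjusted p = 0.00091) and P2rx2 (1.94 ± 0.35, adjusted p = 0.0049) were higher in GFP+ cells, and P2rx4 (-2.18 ± 0.27, adjusted p = 0.0018) and P2rx7 (-2.67 ± 0.52, adjusted p = 0.0059) were lower. Cysltr1 (-1.74 ± 0.66), P2ry1 (0.16 ± 0.25), P2ry6 (0.46 ± 0.53) and P2rx3 (1.98 ± 0.77) were not called. P2ry2 was called in the same direction in both P5 comparisons, as were P2rx2 and P2rx4. When either P5 DAPT GFP- library was left out, 1 receptor was called, and without P5 DMSO GFP- replicate 1 the DMSO comparison called 2. Cysltr2 had 0 counts in both P5 DAPT GFP- libraries and 2 and 24 counts in the GFP+ libraries, at least 23.6-fold more if 3 counts are assumed over the GFP- group, and did not pass the filter.

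**Figure D5:**
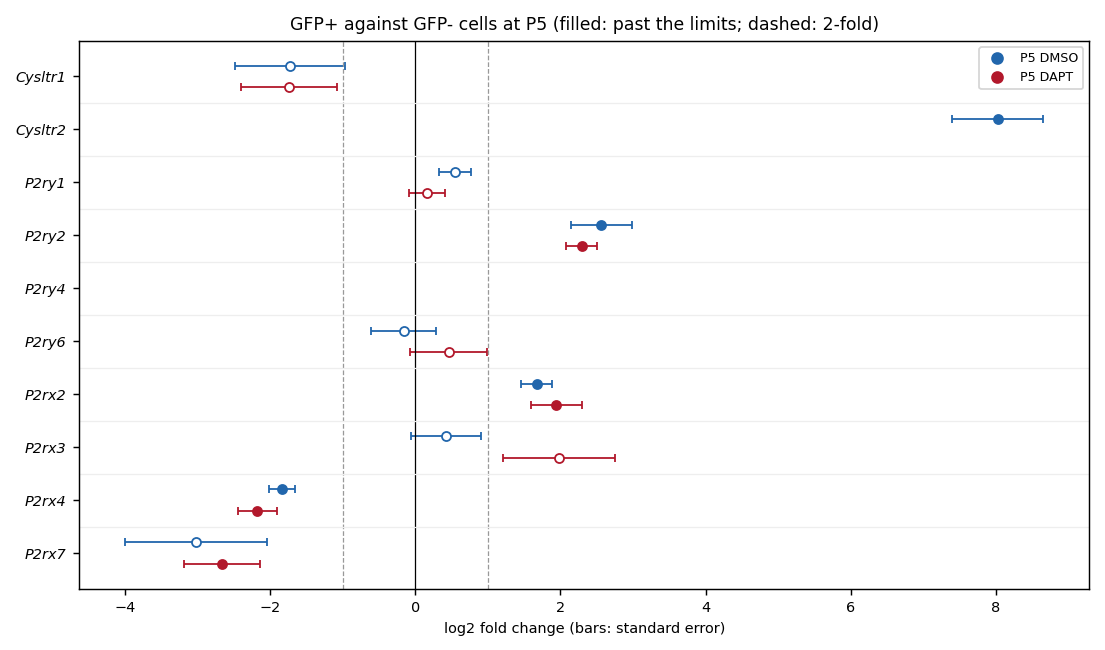
log2 fold changes of GFP+ against GFP- cells at P5 in DMSO (blue) and DAPT (red), with standard errors as bars, filled points past the limits and dashed lines at a fold change of 2. P2ry2 and P2rx2 lie to the right of the lines and P2rx4 and P2rx7 to the left in both treatments, and Cysltr2 is at 8.03 in DMSO.

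At P0 the fractions are described without a test, as they share the libraries that picked the set, and nothing is read from the counts of calls. In DMSO, 4 of 10 receptors passed the limits, beside 40.9% of 21779 genes (25.5% were higher in GFP+ cells and 15.5% lower). Cysltr2 had 4527 and 3613 counts in the GFP+ libraries and 3 and 1 in the GFP- libraries, and the ratio of its summed counts was 4050 (exact 95% counting interval 1580 to 14900). P2ry4 was also higher, with 14 and 57 counts against 0 and 2, and P2rx4 (log2 fold change -2.64 ± 0.49) and P2rx7 (-3.78 ± 0.41) were lower. P2ry6 was higher at 2.92 ± 0.68 without passing the limits, and at 4.27 when the GFP- library that stood apart was left out. The log2 fold changes of P2ry2 (2.03 ± 0.68), Cysltr1 (0.71 ± 0.55) and P2ry1 (-1.61 ± 0.48) did not pass the limits either, and without that library they were 3.44, 0.84 and -0.93. Those of Cysltr2 (11.98 ± 0.36), P2ry4 (6.03 ± 1.33), P2rx4 and P2rx7 were 11.52, 8.72, -1.76 and -3.81 without it. Without that library 8 receptors passed the limits, without the other GFP- library 7 did, and without either GFP+ library none did, in fits that called 0 of all genes. P2rx2 and P2rx3 changed sign with the choice of GFP- library, from -0.33 to 1.99 and from -2.70 to 2.39. In P0 DAPT, 7 of 9 receptors passed the limits, beside 49.6% of 19241 genes (25.5% higher and 24% lower). Cysltr2, P2ry2, P2rx2 and P2rx3 were higher in GFP+ cells, with log2 fold changes of 5.02 ± 0.64, 2.35 ± 0.36, 3.5 ± 0.24 and 3.39 ± 0.26. P2ry1, P2rx4 and P2rx7 were lower, at -1.05 ± 0.22, -1.95 ± 0.35 and -5.07 ± 0.67. P2ry6 (-2.28 ± 0.63) and Cysltr1 (-1.85 ± 0.59) were lower in GFP+ cells without passing the limits, which for P2ry6 was the opposite of its direction in DMSO.

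Between P0 and P5 the receptors of GFP+ cells kept in DMSO parted, with lower levels of Cysltr2 and P2ry6 and higher levels of P2ry1 and P2rx2 at P5. In this comparison, again a description, Cysltr2 was 20.2-fold lower at P5 (log2 fold change -4.38 ± 0.21) and P2ry6 7.79-fold lower (-3.00 ± 0.31). P2ry1 went from 10.1 and 6.16 CPM to 37.4 and 52.8 CPM (2.43 ± 0.31), and P2rx2 from 23.2 and 28.0 CPM to 127 and 112 CPM (2.18 ± 0.18). These 4 of 10 receptors passed the limits, beside 3.32% of 20844 genes (2.01% higher and 1.3% lower at P5). The P0 GFP+ libraries picked the set, so nothing is read from the counts of calls between ages in GFP+ cells. P2rx4 (1.09 ± 0.24) and P2ry2 (1.09 ± 0.37) were higher at P5 in both replicates without being called, and the low receptors Cysltr1 (-2.43 ± 0.79) and P2ry4 (-2.36 ± 0.95) were lower in both. P2rx3 (-0.09 ± 0.54) and P2rx7 (0.87 ± 1.01) overlapped between the ages. In DAPT, P2ry1 was higher at P5 (2.56 ± 0.22) and P2rx3 lower (-4.15 ± 0.53), 2 of 8 receptors beside 5.78% of 18776 genes (3.04% higher and 2.74% lower). P2ry6 went the other way than in DMSO, from 0.107 and 0.155 CPM at P0 to 1.87 and 3.3 CPM at P5 (4.25 ± 0.79, not past the limits), and Cysltr2 overlapped between the ages (-0.61 ± 0.96). P2rx2 (1.46 ± 0.28), P2ry2 (1.42 ± 0.29) and P2rx7 (1.97 ± 1.06) were higher at P5 in both replicates without being called, P2rx4 (0.72 ± 0.40) overlapped, and Cysltr1 and P2ry4 did not pass the filter. The count of called receptors was 5 without the filter on low counts or by the DESeq2 Wald test, 0 without either P0 DAPT library, and 5 and 4 without P5 DAPT replicate 1 and 2.

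The same step in GFP- cells, whose libraries were not in the comparison that picked the set, gave no call. In DMSO edgeR called 0% of 17423 genes, with 135 at an unadjusted p under 0.05 and 1 by the DESeq2 Wald test. P2rx2 was at 6.75 and 33.2 CPM at P0 and at 35.1 and 47.6 CPM at P5 (log2 fold change 1.01 ± 0.70, edgeR adjusted p = 1). Without the P0 library that stood apart it was 2.58 (adjusted p = 0.00049), P2rx3 was -3.13 (adjusted p = 0.00042) in place of -2.19 ± 1.39, and these 2 receptors were called. The other 6 tested receptors had log2 fold changes between 0.03 and 0.58 (edgeR adjusted p = 1 for each). Without that library those of P2ry2, P2ry6, P2rx4 and P2ry1 were 2.04, 1.51, 1.25 and 1.03, none past the limits. In DAPT, where the P0 replicates resembled each other, P2rx2 was at 6.0 and 4.04 CPM at P0 and at 31.2 and 50.6 CPM at P5 (3.03 ± 0.31, edgeR adjusted p = 0.013). P2ry1 (1.36 ± 0.22, adjusted p = 0.031), P2ry2 (1.48 ± 0.30, adjusted p = 0.048) and P2rx3 (-2.70 ± 0.55, adjusted p = 0.049) were also short of the limits, as were P2ry6 (1.56 ± 0.38, adjusted p = 0.075) and P2rx4 (0.96 ± 0.24, adjusted p = 0.076). P2rx7 (-0.40 ± 0.19) and Cysltr1 (-0.09 ± 0.41) were lower at P5 and not called. None of the 8 tested receptors passed, beside 0.354% of 17528 genes (0.291% higher and 0.0628% lower), whereas 4 did without the filter on low counts, by the DESeq2 Wald test or with the replicate number as a block. The P5 means of P2ry1, P2ry2, P2rx2 and P2rx4 were higher than the P0 means in both fractions and both treatments, but in DMSO GFP- cells the replicates of the ages overlapped for P2ry1, P2ry2 and P2rx4, and in DAPT GFP+ cells those of P2rx4 did.

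The genes whose pattern was most like that of a receptor were sought among 12400 genes by Pearson correlation of log2(CPM + 0.5) over the 16 libraries, which share fraction, age and treatment as sources of spread. These include the P0 GFP+ libraries from which the set was picked. Likeness to genes that change with DAPT there is partly built in by that choice, so the correlations are a description. For Cysltr2 they were Hes5 (r = 0.9675), a Notch target gene, Fkbp1a (0.96) and Tram2 (0.9548). Hes5 had mean levels of 98.5 CPM in P0 DMSO GFP+ cells and 0.341 CPM in P0 DAPT GFP+ cells, and 7.4 and 0.195 CPM at P5. For P2ry6 they were Arhgef6 (0.9175), Tm4sf1 (0.8999) and the transcription factor gene Sox9 (0.899). For P2rx3 they were Neurl1a (0.9631), Disp2 (0.9561) and Pop1 (0.9475), and for P2rx2 they were Zhx3 (0.9563), 1600029D21Rik (0.9545) and Tmem211 (0.9535). Among the receptors themselves the highest correlations were those of P2rx4 with P2rx7 (0.88), P2ry2 with P2rx2 (0.87) and Cysltr2 with P2ry4 (0.86), and Cysltr2 with P2ry6 reached 0.69. The value for P2ry4 rests on low counts, 14 and 57 in the P0 DMSO GFP+ libraries and at most 2 in the GFP- libraries. P2rx7 and P2rx4 are neighbours on chromosome 5, 16151 bases apart, and P2ry6 and P2ry2 on chromosome 7, 32180 bases apart.

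Genes that make, release, remove or relay the ligands were followed as 8 lists of 62 genes, of which 60 were matched. In P0 GFP+ cells with DAPT 7 of 55 tested genes passed the limits, 5 lower and 2 higher, beside 8.37% of all genes. Alox5, the enzyme that starts leukotriene synthesis, fell by 2.16 ± 0.43 on the log2 scale (edgeR adjusted p = 0.0069), and Abcc1, an exporter of leukotriene C4, rose by 1.15 ± 0.17 (adjusted p = 0.0013). Entpd1, an ectonucleotidase that removes ATP and ADP, fell by 2.97 ± 0.61, from 77 and 107 counts in DMSO to 15 and 7 in DAPT. The connexin gene Gja1 fell by 2.96 ± 0.63, from 72 and 78 counts to 6 and 12. Gpr17, an orphan relative of the P2Y and CysLT receptors, had 60 counts in the DMSO libraries and 0 in the DAPT libraries, at least 18.4-fold lower against 3 counts over the group. Entpd1, Gja1 and Gpr17 passed the filter on low counts only because of their DMSO libraries, where they were high, so their calls are a description. Among the genes downstream of Gq-coupled receptors, the calcium release channel Itpr2 fell by 1.03 ± 0.15 (adjusted p = 0.0014) and its relative Itpr3 rose by 3.32 ± 0.18 (adjusted p = 3.4e-06). No gene of the lists of other P2X subunits (3 tested), adenosine receptors (3 tested) or other leukotriene receptors (1 tested) was called. At P5 none of 53 tested genes was called by edgeR with DAPT in GFP+ cells, in a comparison without a call among all genes. Itpr3 was the 1 list gene of 57 whose response differed between the ages past the limits (log2 difference -3.41 ± 0.40, edgeR adjusted p = 0.003), and is named for this after its values were seen.

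Between the fractions at P5 in DMSO, 16 of 53 list genes were called, 6 higher and 10 lower in GFP+ cells, beside 33.9% of all genes. The list of genes downstream of Gq-coupled receptors had 7 of 12 called, 4 higher and 3 lower, in DMSO and again in DAPT. Higher in DMSO GFP+ cells were Ano1 (log2 fold change 3.55 ± 0.29, edgeR adjusted p = 8e-04), the calcium-activated chloride channel, Itpr2 (3.67 ± 0.31, adjusted p = 0.00087), Plcb4 (1.41 ± 0.20, adjusted p = 0.0026) and Gna14 (1.41 ± 0.21, adjusted p = 0.0033). Itpr3, Gna11 and Plcb3 were lower. Of the ATP release genes, the connexin gene Gjb6 was higher (2.97 ± 0.35, adjusted p = 0.0017) and Panx1 and Gja1 were lower in GFP+ cells. Leukotriene synthesis had 1 gene higher, Alox5, at 2.26 CPM on average in GFP+ and 0.208 CPM in GFP- cells (3.56 ± 0.71), and 3 lower, Pla2g4a, Lta4h and Ggt5. Alox5 had 6 and 11 counts in the GFP- libraries and passed the filter on low counts only through the GFP+ libraries, so its call is a description. Ltc4s, which makes leukotriene C4 and was singled out after its values were seen, had mean levels of at most 0.734 CPM in every group. Nucleotide breakdown had 2 of 13 genes called, Alpl and the nucleoside transporter gene Slc29a1, both lower in GFP+ cells.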

How the data were processed

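RNA from sorted cells was amplified and sequenced by the authors, who aligned the reads to the mouse mm9 genome and deposited, for each of the 16 libraries, raw counts of reads per Ensembl gene. The submitters' processing notes list TopHat 1.4.0, HTSeq and DESeq 1.9.2, and the strand setting of the counting is not given in the sources used here. Each table held 36536 gene identifiers and 5 closing lines of reads not assigned to a gene, which were left out. Of the identifiers, 34391 were paired with a symbol in the GENCODE M1 annotation.

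Counts were tested with edgeR 4.0.16 in R 4.3.3 (filterByExpr with a minimum count of 10 and a minimum total of 15, TMM scaling, quasi-likelihood F test, 2-sided) on the groups compared only, with Benjamini-Hochberg adjustment over all genes tested. The limits, an adjusted p below 0.01 together with more than a 2-fold change, were those of the study's methods. CPM and RPKM used TMM factors over all libraries (24731 genes). Alternatives were DESeq2 1.42.0 size factors and its Wald test, no filter, a fit over all 8 groups, a block on the replicate number, and each library left out. On simulated counts with 200 genes changed 4-fold, edgeR recovered 92% in P0 GFP+ cells (20711 genes), 36.5% in P5 GFP+ cells (18754 genes) and 56.5% between fractions at P5 in DMSO (19008 genes), with 0 false calls. These genes were drawn from those above the median level, and all genes shared a common spread. Replicates correlated at r between 0.9669 and 0.9954 across those 24731 genes (0.9752 in P0 DMSO GFP-) and differed by more than sampling noise, so each was counted. Counting intervals and floors cover counting error only.

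The receptors, the pathway lists and the marker lists were chosen with earlier results of these data known. Adjusted p-values of the other comparisons are therefore not wholly free of that choice. The rule for named genes took all receptors. Of the pathway lists, the rule named up to 4 called genes per list and direction and the gene with the highest RPKM in P0 DMSO GFP+ cells, and the genes most like a receptor were the 3 with the highest r among genes of 10 CPM or more in at least 1 group. Promoter sequences came from the NCBIM37 genome. Protein sequences were not used here.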

Additional observations from a re-analysis of the deposited data

Results flagged for a closer look

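For 2 receptors the effect of DAPT on GFP+ cells differed between P5 and P0 by the interaction term of the edgeR fit. The log2 response of P2ry6 was higher at P5 than at P0 by 7.24 ± 0.63 (SE), with 2.93 and 3.75 CPM in DMSO and 1.87 and 3.3 CPM in DAPT at P5 against 22.9 and 29.2 CPM and 0.107 and 0.155 CPM at P0. For P2rx3 the difference was -4.08 ± 0.65, with 2.26 and 2.59 CPM in DMSO and 11.5 and 3.3 CPM in DAPT at P5 against 2.34 and 2.7 CPM and 132 and 128 CPM at P0. It missed the limits with all 8 groups in the fit (-4.11), with the replicate number as a block (-4.17), and without P5 DMSO replicate 2 or any of the 4 P0 libraries (-4.19 to -4.0). Both differences use the P0 GFP+ libraries from which the receptors were picked, so they are a description from which nothing further is read, and the P0 DMSO GFP+ libraries form a run of library numbers of their own. No group had the 4 libraries needed to look for single libraries far from the others.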

How the results depend on the processing

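DESeq2 size factors changed no count of called receptors by over 1.5 times and shifted the median log2 fold change of all genes between fractions by 0.09 to 0.13. Without the filter on low counts, the number of called receptors was 1 in place of 0 for DAPT in P5 GFP+ cells, 5 in place of 2 for age in DAPT GFP+ cells and 4 in place of 0 for age in DAPT GFP- cells. The DESeq2 Wald test gave 1, 5 and 4 for the same comparisons and 7 in place of 4 between fractions at P0 in DMSO. All 8 groups in the fit gave 1 in place of 2 for the difference between the DAPT responses. The replicate block gave 4 for age in DAPT GFP+ cells, 4 for age in DAPT GFP- cells and 1 for the difference between the responses, and moved no other count of receptors by over 1.5 times. The labels do not say what a replicate number marks, and with 2 libraries a group a pairing could not be established: same-numbered libraries correlated in their deviations at -0.206 to 0.104 among GFP+ groups, 0.096 to 0.706 among GFP- groups (0.396 between the P0 and 0.706 between the P5 treatments) and -0.127 to 0.171 between fractions. Crossing the numbers in P5 GFP+ cells, an alternative chosen after seeing the data, called 0 receptors and 0 genes.

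With each library left out in turn, called receptors ranged from 3 to 4 for DAPT in P0 GFP+ cells and from 0 to 4 in P0 GFP- cells, and stayed at 0 in both P5 fractions. Between fractions they ranged from 0 to 8 (P0 DMSO), 5 to 7 (P0 DAPT), 2 to 5 (P5 DMSO) and 1 to 5 (P5 DAPT). For age they ranged from 4 to 5 (DMSO GFP+), 0 to 5 (DAPT GFP+), 0 to 2 (DMSO GFP-) and 0 to 3 (DAPT GFP-), and for the difference between the responses from 1 to 3. Log2 fold changes reversed in 4 cases: P2rx2 (-0.33 to 1.99) and P2rx3 (-2.70 to 2.39) between fractions at P0 in DMSO, P2rx3 for DAPT in P0 GFP- cells (-0.36 to 4.72) and P2rx3 for age in DMSO GFP- cells (-3.13 to 1.97), each with 1 or the other P0 DMSO GFP- library left out. The causes were not tested beyond the library that stood apart.

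Over all genes, 1733 calls for DAPT in P0 GFP+ cells became 1089 with all groups in the fit. For age in DMSO GFP+ cells 691 became 1961 without the filter, 1598 by the Wald test and 1050 with the block, in DAPT GFP+ cells 1085 became 2606, 2181 and 1761, and in DAPT GFP- cells 62 became 1283, 1226 and 1200, or 0 with all groups. For the difference between the responses 245 became 906 and 838 without the filter and by the Wald test. Depth limits Cysltr1 and P2ry4, whose counts were below 100 in every library, and Cysltr2 in GFP- cells.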

Other observations

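Per exonic length, the strongest gene of each pathway list in P0 DMSO GFP+ cells was Gjb2 among the ATP release genes (133 ± 51.0 RPKM, SD, n = 2), a connexin gene of the cochlear gap junctions that had a higher mean than Cysltr2, at 109 ± 9.17 RPKM. The replicates of Gjb2 (169 and 96.7 RPKM) and Cysltr2 (115 and 102 RPKM) overlapped, so these genes were not separated. Ano1 led the genes downstream of Gq-coupled receptors (28.1 ± 7.64 RPKM), Lta4h, the enzyme that makes leukotriene B4, the leukotriene synthesis genes (9.54 ± 0.929 RPKM) and Enpp1, which breaks down extracellular ATP, the nucleotide breakdown genes (8.60 ± 1.59 RPKM). The replicates of Ano1 overlapped those of Itpr2, the next gene of its list. The leading genes of the other receptor lists were all below 1 RPKM: P2ry13 (0.941 ± 0.124), P2rx5 (0.488 ± 0.122), Adora1 (0.381 ± 0.0658) and Ltb4r1 (0.365 ± 0.0518). Except for P2ry13, their replicates overlapped those of the next gene of the list. In this group Cysltr2, P2ry6, P2rx2, P2ry2, P2rx4 and P2ry1 therefore had higher means than every other P2X, P2Y, adenosine and leukotriene receptor gene on the lists. P2rx3, Cysltr1, P2rx7 and P2ry4 did not. The P0 DMSO GFP+ libraries are among those that picked the set, so this order is a description from which nothing is read.

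With age, 3 of 55 list genes were called in DMSO GFP+ cells, beside 3.32% of all genes, and they are named after their values were seen. Ano1 was at 174 and 118 CPM at P0 and at 586 and 797 CPM at P5 (log2 fold change 2.21 ± 0.24, edgeR adjusted p = 0.0016), Itpr1 rose by 1.49 ± 0.18 (adjusted p = 0.0023) and Gjb6 by 2.41 ± 0.36 (adjusted p = 0.0054). In DAPT GFP+ cells 9 of 52 list genes were called, 7 higher and 2 lower at P5, beside 5.78% of all genes. The same 3 genes were among those higher, at 1.93 ± 0.16, 1.72 ± 0.13 and 2.21 ± 0.24. The age comparison in DMSO cannot be told apart from the runs of library numbers.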
